A study of Mus musculus with 6 samples.

Results

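The IFIT genes (interferon-induced proteins with tetratricopeptide repeats) were examined in bone marrow-derived macrophages (BMDMs) that had been co-cultured with neutrophils. The mouse genes *Ifit1*, *Ifit2*, *Ifit3*, *Ifit3b*, *Ifit1bl1* and *Ifit1bl2* were taken by symbol, and each matched 1 row of the deposited table, giving 6 of 55335 genes. The table holds RNA-seq values of 6 libraries, 3 labelled WT N and 3 labelled KO N. In both groups the macrophages were grown with M-CSF from marrow of *Cd177* wild-type mice, and they differed in the *Cd177* genotype of the neutrophils added for 24 h. The neutrophils came from the injured spinal cord of male C57BL/6 mice, either wild-type or *Cd177*-/-, at 3 days post-injury (dpi), and the macrophages were then sorted as Ly6G-negative cells. The comparison therefore asked how IFIT transcripts in wild-type macrophages differed with the origin of the neutrophils beside them. No source states that libraries of a group came from separate animals or cultures, so p-values measure the spread between these libraries, which may be technical.

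IFIT proteins are cytoplasmic RNA-binding proteins built from repeated helical motifs. They are nearly silent in resting cells and are switched on by type I interferon through ISGF3, a complex of STAT factors with IRF9 that binds the interferon-stimulated response element (ISRE). IFIT1 holds the 5′ end of RNAs that lack ribose methylation beside the cap and keeps them from being translated, and IFIT proteins also contact the translation initiation factor eIF3. In macrophages their transcripts are a common readout of interferon or nucleic acid exposure.

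*Cd177* itself, the gene deleted in the donors of one neutrophil group, measured 0.544, 0.309 and 0.521 FPKM (fragments per kilobase of transcript, relative to the size of the library) in the WT N libraries and 1.79, 1.84 and 2.28 FPKM in the KO N libraries. It was thus higher in the libraries labelled KO N (log2 fold change 1.37, SE 0.16, adjusted p = 0.000827, limma). The filter for testing was a mean of 0.5 FPKM over all libraries. With a WT N mean of 0.458 FPKM, *Cd177* passed it only through KO N, where it was high. The macrophages carry the intact gene in both groups, and the values are gene totals, which do not show the cell of origin. *Cd177* was 1 of 11 neutrophil markers, of 13 tested, that rose in KO N, although the neutrophils of that group are labelled *Cd177*-/-. Whether the labels are right was not tested, and WT N and KO N below mean the groups as labelled. Of the 10 macrophage identity genes listed, *Adgre1* (F4/80) measured 218 to 256 FPKM in WT N and 279 to 309 FPKM in KO N. *Csf1r*, the M-CSF receptor, measured 232 to 284 and 268 to 293 FPKM. *Cd14* and *Fcgr1* fell, from means of 1010 and 121 FPKM in WT N to 99.4 and 33.8 FPKM in KO N. *Adgre1* and *Mertk* were called higher, though not with median-of-ratios scaling. The depth implied by the smallest steps of the values was 17800000 to 20600000 fragments per library. This is a rough estimate, since only 40.4% to 43.5% of low values lay near whole multiples of the step (20% by chance). Fragment numbers below rest on it.

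The 6 genes form 1 cluster on mouse chromosome 19 (GRCm38, GENCODE M21), from base 34550694 to base 34650009, a stretch of 99.3 kb with no other protein-coding gene inside it. In chromosome order they are *Ifit2*, *Ifit3*, *Ifit1bl1*, *Ifit3b*, *Ifit1bl2* and *Ifit1*. The 4 genes *Ifit2*, *Ifit3*, *Ifit3b* and *Ifit1* lie on the plus strand, and *Ifit1bl1* and *Ifit1bl2* on the minus strand. *Ifit1* and *Ifit1bl2* point away from each other, with 127 bases between their annotated starts.

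The promoters are shown because several members share upstream letters. The RefSeq promoter table (GRCm38.p6) held windows for all 6 genes, 9 windows in all, each from 250 bases before to 50 after a transcription start. They were searched on both strands for the ISRE core GAAANNGAAA and for the palindrome TTCNNNGAA bound by STAT dimers (GAS). The stretches with an ISRE core follow, read 5′ to 3′ on the strand of the gene. Capitals mark the match, which in each stretch lies on the opposite strand and so reads from TTTC.

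*Ifit1*, chr19:34640765-34640833, plus strand, intergenic: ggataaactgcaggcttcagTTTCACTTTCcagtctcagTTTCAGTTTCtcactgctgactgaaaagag
*Ifit3*, chr19:34583353-34583436, plus strand, intergenic: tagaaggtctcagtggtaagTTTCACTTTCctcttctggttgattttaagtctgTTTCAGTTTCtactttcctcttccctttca
*Ifit3b*, chr19:34607749-34607832, plus strand, intergenic: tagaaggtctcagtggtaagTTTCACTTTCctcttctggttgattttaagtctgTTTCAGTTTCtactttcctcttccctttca
*Ifit1bl1*, outer start, chr19:34602043-34602092, minus strand, intergenic: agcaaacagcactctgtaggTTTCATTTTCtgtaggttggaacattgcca
*Ifit1bl1*, inner start, chr19:34599428-34599470, minus strand, intron of the longer transcript: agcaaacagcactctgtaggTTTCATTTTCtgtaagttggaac

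*Ifit1*, *Ifit3* and *Ifit3b* each held 2 ISRE cores, and both the first and the second core read the same in all 3 genes. In *Ifit1* they lay at positions -104 to -95 and -85 to -76 from the start, in *Ifit3* at -156 to -147 and -122 to -113, and in *Ifit3b* at -188 to -179 and -154 to -145. The stretches of 84 bases printed for *Ifit3* and *Ifit3b* were identical base for base, while the full 250 bases upstream of the 2 starts were 76.6% identical in a global alignment. The outer *Ifit1bl2* window lies on the same intergenic bases as the *Ifit1* window and so held the same 2 cores, on its own plus strand at -70 to -61 and -51 to -42. The 2 windows of *Ifit1bl1* held 1 core each. In the 2 windows of *Ifit2*, these letters were not found, and the outer one held 1 GAS palindrome at -241 to -233, the single GAS match in the 9 windows. No match overlapped another. An ISRE core occurred in 5 of the 6 genes (83.3%), against 1079 of the 27025 genes with a window in the table (3.99%), and 74 of all 32851 windows (0.225%) held 2 or more. Of the other antiviral effector genes listed below, 15 had a window and 8 of these (53.3%) held a core. For the GAS palindrome, the share over all genes with a window was 9.55%.

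**Figure D1:**
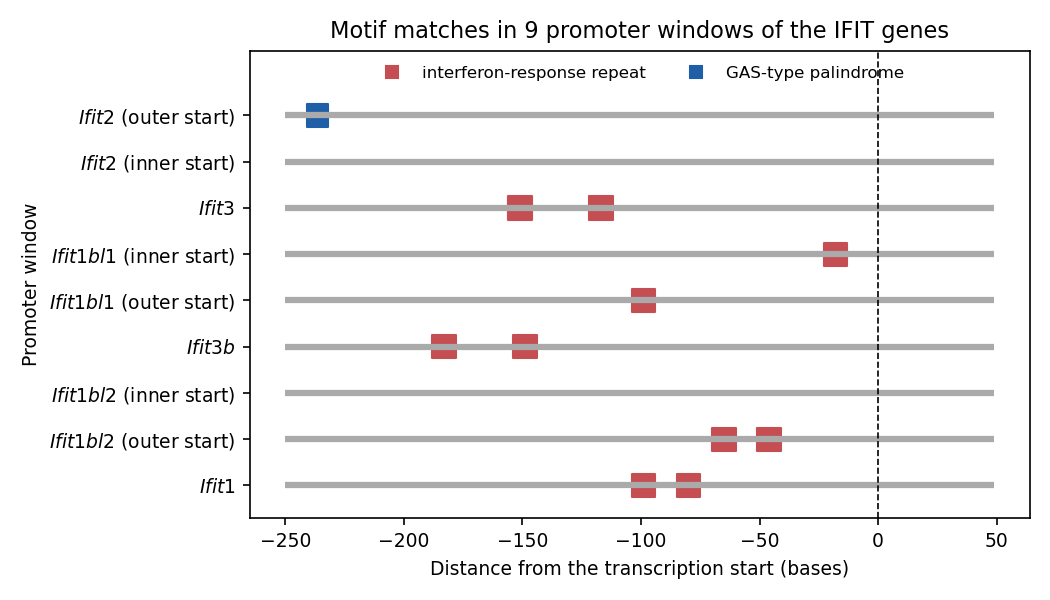
Positions of ISRE cores (red) and GAS palindromes (blue) in the 9 promoter windows of the IFIT genes, with the x axis giving the distance in bases from the transcription start (dashed line) and the grey bars the windows. Pairs of ISRE cores lie upstream of *Ifit1*, *Ifit3*, *Ifit3b* and the outer start of *Ifit1bl2*, and the windows of *Ifit2* hold 1 GAS palindrome.

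*Ifit1*, whose product binds capped RNA that lacks the ribose methyl group next to the cap, measured 66.8, 70.9 and 79.8 FPKM in WT N replicates 1 to 3 and 0.672, 1.56 and 1.19 FPKM in KO N replicates 1 to 3. The lowest WT N library was 42.9 times the highest KO N library. On the scale of log2(FPKM + 0.5), *Ifit1* fell by 5.51 from WT N to KO N (SE 0.21, n = 3 per group, adjusted p = 6.2e-06, limma), and the means of 72.5 ± 6.65 and 1.14 ± 0.445 FPKM (SD) stood 63.6-fold apart. In bulk RNA, fewer cells that express a gene and less RNA per cell cannot be told apart.

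*Ifit2*, an RNA-binding member also linked to apoptosis, measured 105, 115 and 105 FPKM in WT N and 1.65, 1.85 and 1.99 FPKM in KO N. The groups did not overlap, and the replicates of each were close together (CV 5.15% and 9.34%). *Ifit2* fell by 5.55 on the same log2 scale (SE 0.09, adjusted p = 4.41e-07), within the SE of *Ifit1*, and the means differed 59.3-fold.

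*Ifit3*, the partner that stabilises IFIT1 in human cells, was the most abundant member, at 122, 121 and 141 FPKM in WT N and 2.25, 2.5 and 4.47 FPKM in KO N. KO N replicate 3 was well above the other two, yet every KO N library was far below every WT N library. *Ifit3* fell by 5.22 (SE 0.22, adjusted p = 1.13e-05), with means 41.7-fold apart.

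*Ifit3b*, a close copy of *Ifit3*, measured 11.6, 12.6 and 12.7 FPKM in WT N and 0.435, 0.631 and 0.499 FPKM in KO N. Its level in WT N was 8.99% to 10.3% of that of *Ifit3* and the groups again did not overlap. It fell by 3.65 (SE 0.11, adjusted p = 3.36e-06), with means 23.5-fold apart. *Ifit3* and *Ifit3b* were 99.1% identical over their coding sequence, and 51.2% of the 50-base words of the *Ifit3* transcript also occurred in that of *Ifit3b*. How fragments that fit both were counted is not given in the sources used here, so the division between the 2 copies is uncertain. With both copies added together, the sum fell by 5.14 on the log2 scale (adjusted p = 7.66e-06).

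*Ifit1bl1*, an *Ifit1*-like gene, measured 4.01, 4.61 and 3.85 FPKM in WT N and 0.1, 0.187 and 0.063 FPKM in KO N. The KO N values correspond to about 2.6 to 8.5 fragments per library, so its ratio of means of 35.6 is known less well than those of the abundant members. It fell by 2.92 (SE 0.14, adjusted p = 1.66e-05). Since its KO N values lie under the added 0.5 FPKM, this log2 value understates the change, and with 0.1 FPKM added it was -4.33.

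*Ifit1bl2*, the other *Ifit1*-like gene, was too low in both groups to be compared. It measured 0.0936, 0.0691 and 0.088 FPKM in WT N and 0.185, 0.0381 and 0.064 FPKM in KO N, the KO N values lying on both sides of the WT N values. These are about 2.6 to 11.1 fragments per library. Its mean was under the filter of 0.5 FPKM, so it was not tested, and a difference between the groups was not detectable at this depth. Although it shares the intergenic bases with the ISRE cores of *Ifit1*, its mean in WT N was 0.0836 FPKM against 72.5 FPKM for *Ifit1*. Its coding sequence was 87.5% identical to that of *Ifit1bl1* and 73.9% to that of *Ifit1*, while *Ifit2* shared no 50-base word with any other member.

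**Figure D2:**
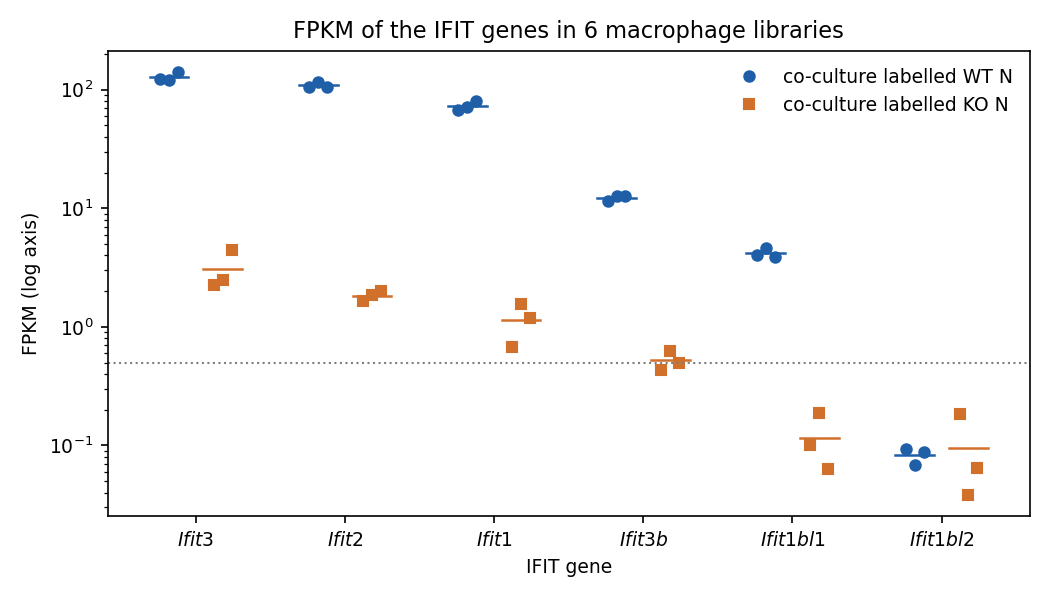
FPKM of each IFIT gene (log axis) in the 3 WT N libraries (blue circles) and the 3 KO N libraries (orange squares), with bars at the group means and a dotted line at the filter of 0.5 FPKM. For 5 genes every WT N library lies above every KO N library, whereas *Ifit1bl2* lies between 0.0381 and 0.185 FPKM with the groups interleaved.

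Of the 6 members, 5 passed the filter, and all 5 of these fell at an adjusted p under 0.05. *Ifit1bl1*, with a KO N mean of 0.117 FPKM, passed the filter only through WT N, where it was high, and so had to differ, while the KO N means of the other 4 were at least 0.522 FPKM. Over all 13367 genes tested, 1408 (10.5%) were called lower in KO N and 3619 (27.1%) higher. The same 5 members had groups that did not overlap with KO N lower, which held for 14.4% of all genes tested. The 5 also passed the study's cut-offs, a fold change above 2 with an unadjusted p under 0.05, as did 4.43% of all genes in the lower direction. The cut-offs were applied here to limma on log2(FPKM + 0.5), whereas the study used DESeq2. The median log2 fold change of the 5 was -5.22, against 0.19 for all genes tested. With median-of-ratios scaling, which brings the median of all genes to 0, the split was 2215 lower and 2156 higher, and the median of the 5 members was -5.42. Counted from the gene with the most negative log2 fold change, *Ifit2* stood at place 7, *Ifit1* at 8, *Ifit3* at 14, *Ifit3b* at 48 and *Ifit1bl1* at 93 of 13367. These places depend on the added 0.5 FPKM. The means of *Ifit1bl1* differed 35.6-fold and those of *Ifit3b* 23.5-fold, and with 0.1 FPKM added both log2 values were -4.33.

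FPKM is a value per length, so levels can be set beside each other between genes. The order from high to low was *Ifit3*, *Ifit2*, *Ifit1*, *Ifit3b*, *Ifit1bl1* and *Ifit1bl2* by mean in both groups. In WT N no neighbours in this order overlapped, the lowest *Ifit3* value of 121 FPKM lying above the highest *Ifit2* value of 115 FPKM. In KO N the ranges of *Ifit1bl1* (0.063 to 0.187 FPKM) and *Ifit1bl2* (0.0381 to 0.185 FPKM) overlapped, and the other neighbours did not. The order held although the summed FPKM of the family went from 310, 324 and 343 in WT N to 5.29, 6.77 and 8.27 in KO N, that is from 0.101% to 0.107% of all FPKM in a library to 0.00171% to 0.00257%.

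Shares of the family total ask whether the members fell in equal proportion, and do not depend on the scaling between libraries. *Ifit3* made up 39.3% ± 1.87 of the total in WT N and 44.5% ± 8.71 in KO N (SD, n = 3), *Ifit2* 33.3% ± 2.39 and 27.5% ± 3.56, and *Ifit1* 22.2% ± 0.925 and 16.7% ± 5.53. The ranges of these 3 genes overlapped between the groups. The share of *Ifit3b* was 3.75%, 3.87% and 3.7% in WT N and 8.23%, 9.32% and 6.03% in KO N, without overlap. The difference of 4.09 percentage points reached the smallest p that 3 against 3 libraries allow (exact permutation test, two-sided, p = 0.1, adjusted over the 6 shares p = 0.3), so it could not pass 0.05. Relative to *Ifit3*, *Ifit3b* stood at 9.51%, 10.3% and 8.99% in WT N and 19.3%, 25.2% and 11.2% in KO N. The share of *Ifit1bl2* was at most 0.0302% in WT N and 0.562% to 3.5% in KO N (exact permutation p = 0.1, adjusted p = 0.3), as its own level stayed low while the total dropped. The share of *Ifit1bl1* was 1.28% ± 0.149 and 1.8% ± 1, with overlap. For *Ifit1*, *Ifit2*, *Ifit3* and *Ifit1bl1* the exact permutation p lay between 0.2 and 0.5.

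**Figure D3:**
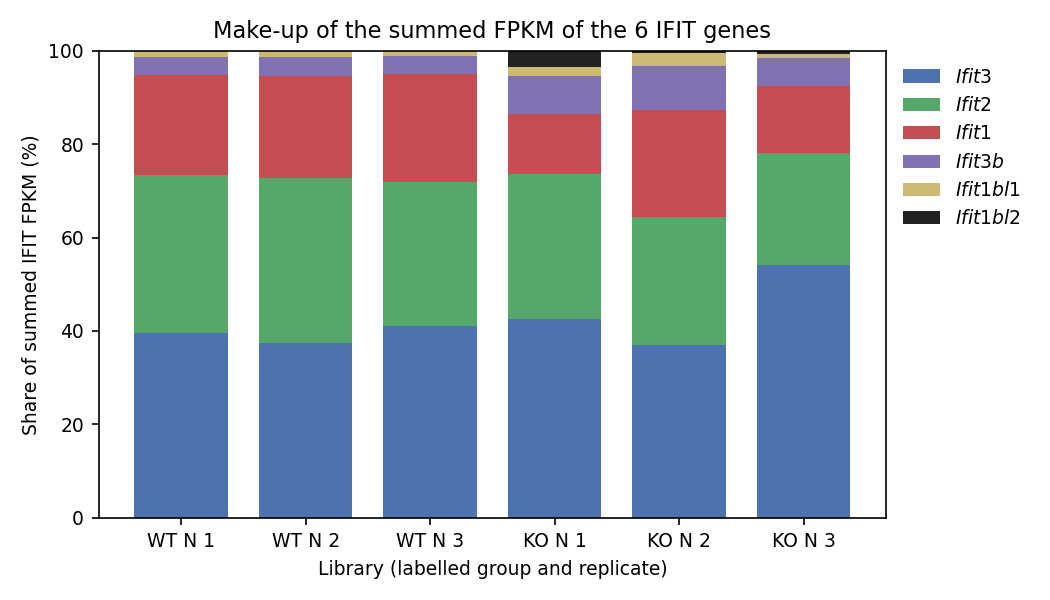
Share of each IFIT gene in the summed FPKM of the 6 genes (y axis, %) in each library, stacked from *Ifit3* at the bottom to *Ifit1bl2* at the top. *Ifit3*, *Ifit2* and *Ifit1* make up most of every bar, and the *Ifit3b* segment is wider in the 3 KO N libraries (6.03% to 9.32%) than in the 3 WT N libraries (3.7% to 3.87%).

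Of the 3 nearest protein-coding genes on each side of the cluster, 5 were tested, and 3 of these rose, also with median-of-ratios scaling, while the others did not pass the test. Over all genes tested, 27.1% were called higher. *Lipa*, the lysosomal acid lipase and nearest neighbour on the *Ifit2* side, rose from 156, 155 and 133 FPKM in WT N to 242, 245 and 224 FPKM in KO N (log2 fold change 0.68, SE 0.09, adjusted p = 0.00182). *Ch25h*, which makes 25-hydroxycholesterol, measured 3.22, 2.09 and 5.36 FPKM in WT N and 1.9, 1.9 and 2.5 FPKM in KO N, with overlap (log2 fold change -0.57, adjusted p = 0.167). *Fas*, a death receptor, had a log2 fold change of -0.27 (adjusted p = 0.246). On the *Ifit1* side, the transporter *Slc16a12* was at 0 in 3 libraries and at most 0.0531 FPKM in the others, and was not tested. *Pank1*, a pantothenate kinase, and *Kif20b*, a mitotic kinesin, rose by 0.57 (adjusted p = 0.0158) and 1.05 (adjusted p = 0.000727) on the log2 scale. The call of *Pank1* was lost without KO N replicate 1 (adjusted p = 0.0651, limma) or 2 (0.0629).

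**Figure D4:**
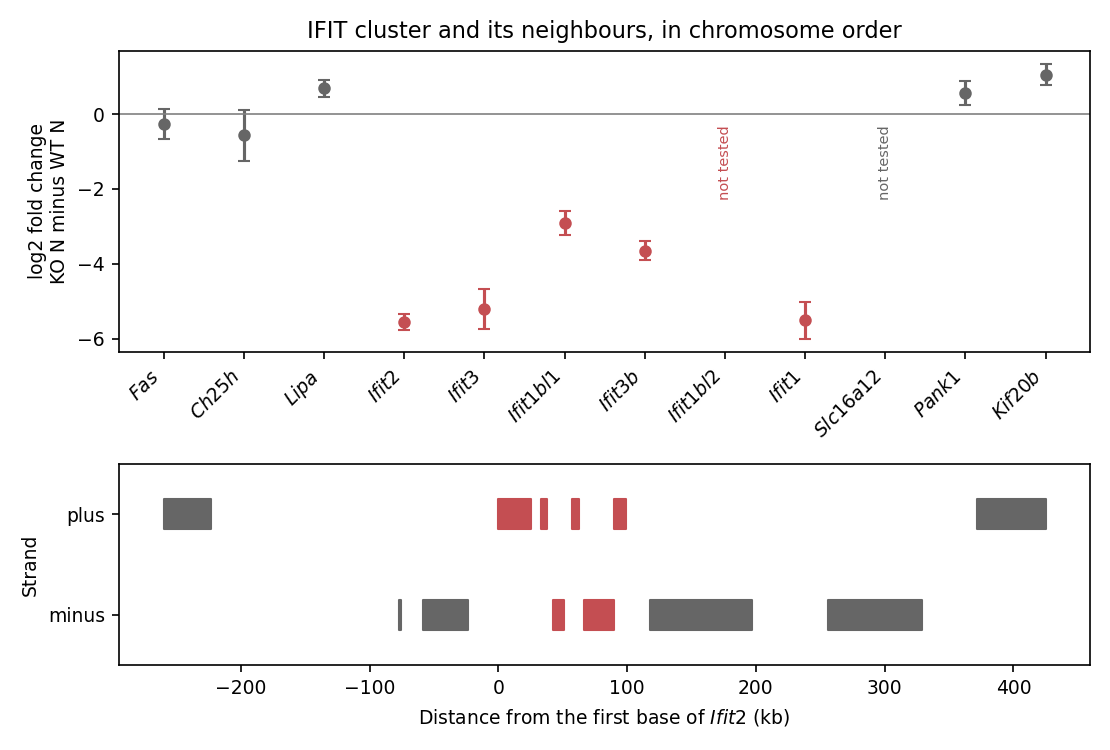
Top, log2 fold change (KO N minus WT N) with its 95% interval for the IFIT genes (red) and the 3 nearest protein-coding genes on each side (grey), in chromosome order. Bottom, the same genes by strand and distance in kb from the first base of *Ifit2*. The 5 tested IFIT genes lie between -5.55 and -2.92, and the 5 tested neighbours between -0.57 and 1.05.

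The interferon pathway was then followed from ligand to target with lists of genes by role. The counts by list stand beside 10.5% of all genes tested called lower and 27.1% called higher. Counts with median-of-ratios scaling stand beside 2215 genes called lower and 2156 called higher, of 13367 tested. The ligands *Ifnb1*, *Ifna4* and *Ifng* were listed at 0 in all libraries but WT N replicate 3, where they measured 0.074, 0.0847 and 0.105 FPKM. All lay under the filter of 0.5 FPKM and were not tested, so no difference between the groups can be read from them. The type I receptor chains *Ifnar1* and *Ifnar2* measured 22.3 and 30.9 FPKM on average in WT N and 20.5 and 32.9 FPKM in KO N, changing by -0.11 and 0.09 on the log2 scale (adjusted p of 0.621 and 0.384). *Ifngr1*, a chain of the interferon gamma receptor, rose from 13.5, 15.2 and 11.2 FPKM to 57.8, 60.5 and 43.9 FPKM (log2 fold change 1.99, adjusted p = 0.000191), and *Ifngr2* had a log2 fold change of -0.15 (adjusted p = 0.162).

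Of the 11 genes for interferon signalling, 6 fell and 1 rose. *Stat2*, a subunit of ISGF3, measured 37.1, 41.2 and 20.6 FPKM in WT N, replicate 3 being low, and 4.85, 5.01 and 3.87 FPKM in KO N (log2 fold change -2.67, adjusted p = 0.000394). *Irf9*, the DNA-binding part of ISGF3, changed far less, from a mean of 8.57 to 6.72 FPKM (log2 fold change -0.33, adjusted p = 0.0273), and its call was lost with TPM rescaling (0.0834) and with any library left out but WT N replicate 3 (adjusted p from 0.0625 to 0.0916, limma). *Irf7*, which is itself induced by interferon and drives interferon genes, fell from 40.5, 41.6 and 41.9 FPKM to 2.55, 2.74 and 2.19 FPKM (log2 fold change -3.81, adjusted p = 1.86e-06). *Irf1* (-1.99) and the kinase *Jak2* (-0.57) fell as well, and *Jak1* rose by 0.45 (adjusted p = 0.00869), a call that median-of-ratios scaling did not keep (0.24, adjusted p = 0.0775), where *Irf5* was called lower as a 7th gene. The log2 fold change of *Irf3* was 0.09 (adjusted p = 0.569).

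Among the 14 genes for RNA and DNA sensing, 3 fell and 2 rose. The cytosolic RNA sensors *Dhx58* (LGP2, -2.30), *Ifih1* (MDA5, -1.87) and *Ddx58* (RIG-I, -1.81) fell, *Ddx58* from 21.3, 22.4 and 19 FPKM to 5.69, 5.84 and 5.26 FPKM. *Mavs*, the adaptor of these sensors, and *Ikbke*, a kinase, rose by 0.40 each (adjusted p of 0.00922 and 0.0451), calls that median-of-ratios scaling did not keep (0.20 each). The call of *Ikbke* was also lost without WT N replicate 1 or any 1 of the KO N libraries (adjusted p from 0.0773 to 0.133, limma). With median-of-ratios scaling *Tbk1*, *Ticam1* and *Traf6*, signalling parts downstream of the sensors, were called lower as well, making 6. *Tbk1* narrowly missed the threshold in the main fit (adjusted p = 0.0514, limma). It was also called lower in other alternatives, such as upper-quartile scaling (0.0261) and the replicate block (0.0137).

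Of the 6 feedback genes, 3 fell and 2 rose. *Usp18*, which removes ISG15 from proteins and blocks the type I receptor, fell from 30.7, 29.8 and 34.2 FPKM to 1.23, 0.98 and 0.934 FPKM (log2 fold change -4.37, adjusted p = 1.86e-06). *Socs1* (-2.54) and *Socs3* (-1.78), inhibitors of JAK kinases, fell too, while the inhibitors *Ptpn6* and *Pias1* rose by 0.67 and 0.53. With median-of-ratios scaling *Ptpn2*, a phosphatase, was called lower too.

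The list closest to the IFIT genes in role, 20 other antiviral effectors, fell in all 20 tested genes, with a median log2 fold change of -3.01 (-3.19 with median-of-ratios scaling). Over all genes tested, 10.5% were called lower. *Ifi44* and *Mx2*, with KO N means of 0.259 and 0.407 FPKM, passed the filter only through WT N, where they were high, and so had to differ. *Rsad2* (viperin) went from 113, 114 and 106 FPKM to 1.39, 1.53 and 1.81 FPKM (log2 fold change -5.75, adjusted p = 5.1e-07) and *Isg15*, a ubiquitin-like modifier, from 266, 253 and 366 FPKM to 6.33, 6.04 and 7.12 FPKM (-5.38). *Isg20*, an exonuclease, fell least, by 1.29 (adjusted p = 0.000988). The log2 fold changes of the 5 tested IFIT genes lay within the range of this list.

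Changes among genes whose products work with or on the same RNAs as IFIT proteins were smaller. Over all genes tested, 10.5% were called lower and 27.1% higher, and the counts of the 2 lists that follow are near these shares. Of the 13 eIF3 subunits, 1 fell and 3 rose, with a median log2 fold change of 0.09 (-0.13 with median-of-ratios scaling), and the change of largest size was that of *Eif3f* (0.72). Of the 6 enzymes of mRNA capping, 1 fell and 2 rose, with a median of 0.08 (-0.11 with median-of-ratios scaling, where 2 fell and 1 rose). The one that fell was *Cmtr1* (10.6, 10.9 and 7.84 against 6.92, 6.04 and 6.23 FPKM, log2 fold change -0.56, adjusted p = 0.02), which adds that ribose methyl group. This call was lost with TPM rescaling (adjusted p = 0.055) and without WT N replicate 1 or 2 or KO N replicate 2 or 3 (adjusted p from 0.0588 to 0.0725, limma), and that of *Eif3b*, the eIF3 subunit that fell, with TPM rescaling and with any library left out but WT N replicate 3 (0.0579 to 0.133).

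**Figure D5:**
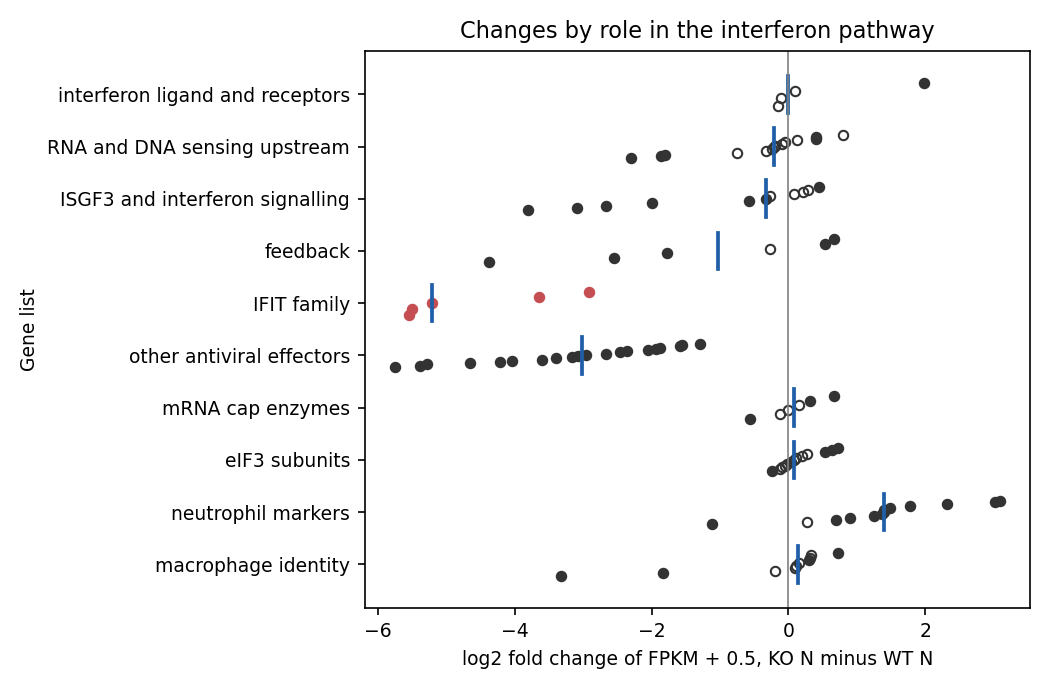
Log2 fold change (KO N minus WT N) of each tested gene by list, with filled points for an adjusted p under 0.05, open points otherwise, and a blue bar at the median of the list. The IFIT genes (red) and the other antiviral effectors lie to the left of 0 throughout, and the eIF3 subunits and cap enzymes lie around 0.

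Genes listed as markers of other cell types were compared as well, although gene totals do not show the cell of origin. Of 16 neutrophil markers, 13 were tested, 11 rose, *Cd177* among them, and 1, *Mmp8*, fell. Over all genes tested, 27.1% were called higher and 10.5% lower. *Cd177* and *Cxcr2*, with WT N means of 0.458 and 0.382 FPKM, passed the filter only through KO N, where they were high, and so had to differ. The 16 markers summed to 203 to 262 FPKM in WT N and 560 to 574 FPKM in KO N. *Ltf* (lactoferrin) rose from 4.23, 3.72 and 3.8 FPKM to 34.1, 37 and 39.9 FPKM. The untested *Ly6g*, the marker used to sort neutrophils out, was at 0 in the WT N libraries and at 0.66, 0.547 and 0.403 FPKM in the KO N libraries. *Elane*, also untested, measured 0.531, 0.224 and 0.197 FPKM in WT N against 0, 0.0499 and 0.365 FPKM in KO N. For the untested *Mpo* the values were 0.196, 0.239 and 0.0866 FPKM against 0.361, 0.48 and 0.389 FPKM. The part of these transcripts in the IFIT result was not tested. Of 7 markers of plasmacytoid dendritic cells, strong producers of type I interferon, 3 were tested and 2 fell, *Irf7* and *Bst2*, which macrophages also express. *Tcf4* measured 1.54, 1.65 and 0.596 FPKM in WT N and 2.56, 2.78 and 2.14 FPKM in KO N (log2 fold change 0.82, adjusted p = 0.0509, and 0.0111 to 0.045 in 5 alternatives), and the untested *Cox6a2* 0.0349, 0 and 0 against 0.309, 0.808 and 0.764 FPKM. The defining *Siglech* was at 0 in 5 libraries and at 0.0291 FPKM in KO N replicate 2, and the summed list measured 409 to 555 FPKM in WT N and 114 to 124 FPKM in KO N, of which *Bst2* alone made up 365 to 512 and 108 to 119 FPKM. Of 9 lymphocyte markers only *Cd79b* was tested, and it rose (summed list 0.664 to 1.16 FPKM in WT N and 3.73 to 4.87 FPKM in KO N), with *Cd3e* and *Nkg7* at or near 0. Of 8 spinal cord markers, *Tubb3* rose by 0.36 (adjusted p = 0.0242) and *Mbp* had a log2 fold change of 0.25 (adjusted p = 0.186), with *Snap25*, *Aqp4* and *Mog* at 0 in every library (summed list 15.9 to 18.2 and 20.1 to 21.9 FPKM). Of the 10 macrophage identity genes, *Cd14* (-3.33) and *Fcgr1* (-1.83) fell and *Adgre1* (0.30) and *Mertk* (0.72) rose, and the summed list measured 6820 to 8180 FPKM in WT N and 7420 to 8120 FPKM in KO N. With median-of-ratios scaling the rises of *Adgre1* (0.09), *Mertk* (0.51), *Tubb3* (0.15) and the neutrophil marker *S100a8* (0.48) were not kept. The call of *Adgre1* was lost with any library left out but WT N replicate 3, that of *Tubb3* without WT N replicate 1 or any 1 KO N library, that of *Mertk* without KO N replicate 1 or 2, and that of *S100a8* without WT N replicate 1 or KO N replicate 1 or 2 (adjusted p from 0.0507 to 0.154, limma).

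The genes whose log2 values over the 6 libraries were most like the mean of the tested IFIT genes, among those with a log2 fold change within 1 of the members' median, were *Htra4* (Pearson r = 0.99961), *Cxcl2* (0.99951), *Ass1* (0.99941), *Rsad2* (0.99934) and *Mx1* (0.99931). In all, 21 genes lay within that range of fold change with r above 0.99. The 6 libraries form 2 separate groups, so a value of r this high mainly reflects the difference between them. *Rsad2* and *Mx1* are antiviral effectors, *Cxcl2* is a neutrophil-attracting chemokine, *Ass1* makes argininosuccinate and *Htra4* encodes a serine protease. Their means were 28, 48.6, 189, 111 and 27.2 FPKM in WT N and 0.71, 1.73, 5.67, 1.58 and 0.597 FPKM in KO N, in the order named first.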

How the data were processed

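The authors deposited FPKM per gene for 55335 mouse Ensembl identifiers in 6 libraries, 3 per group. The submitters' processing notes name fastp 0.17.1, HISAT2 2.1.0, DESeq2 1.18.1 and R 3.4.3. The genome build, the annotation and the counter are not given in the sources used here, and the labels name another library kit and sequencer than the study's methods. GENCODE M21 gave symbols for 55154 identifiers (99.7%), positions and transcripts, and RefSeq (GRCm38.p6) gave promoters, matched by symbol.

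Low values multiplied by transcript length were within 0.1 of whole multiples of 1 step in only 40.4% to 43.5% of cases (20% by chance), so counts were not recovered and no count test was run. Fragment numbers are estimates from that step.

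The two-sided test was limma 3.58.1 (R 4.3.3, lmFit and eBayes with trend, no covariates), run on log2(FPKM + 0.5). It covered the 13367 genes whose mean reached 0.5 FPKM, and p-values were adjusted over all of them (Benjamini-Hochberg). A fold change is on that scale and understates changes of low genes. In simulated data with independent normal noise (13367 genes), the fit recovered 98 of 100 genes changed by 3 on the log2 scale and 68 of 100 changed by 1, with 13 calls among 13167 unchanged genes. Far more genes were called in the data (1408 lower and 3619 higher), so these figures are not the error rates of this comparison. Shares of the family total were compared with an exact permutation test (scipy 1.17.1), for which the smallest p is 0.1. Coding sequences were aligned globally with biopython 1.88. Python 3.11.15, numpy 2.4.6, pandas 2.3.3 and matplotlib 3.10.9 were used.

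The members, the gene lists, the tests and the alternatives were chosen with earlier results of these data known. Named genes are the members, genes of the lists, the 3 nearest protein-coding neighbours on each side, the 5 genes most like the family and *Cd177*. Some genes of the lists enter the counts but are not reported here by name. Alternatives were pseudocounts, filters, scalings, a robust variance, a replicate block, summed copies and libraries left out.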

Additional observations from a re-analysis of the deposited data

How the results depend on the processing

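All 5 tested members kept their direction and an adjusted p under 0.05 (limma) in each of the alternatives in which they were tested, with log2 fold changes from -5.94 to -5.12 for *Ifit1*, -5.82 to -5.27 for *Ifit2*, -5.48 to -5.02 for *Ifit3*, -4.33 to -3.13 for *Ifit3b* and -4.33 to -2.21 for *Ifit1bl1*. The extremes of *Ifit3b* and *Ifit1bl1* came with pseudocounts of 0.1 and 1. The count of members called lower was 5, except that it was 4 with a mean of at least 5 FPKM, which leaves out *Ifit1bl1*, and 4 with the copies summed. The median of the family was -4.43 without a filter, since *Ifit1bl2* (0.02) then enters, a gene whose values all lie under the added 0.5 FPKM. With 1 library left out, the family median lay between -5.48 and -5.05. Without replicate 3 of either group, an alternative chosen after seeing the data, it was -5.41 with 5 members called. The differences in share kept their sign in each alternative, although with 1 library left out that of *Ifit3* ranged from 0.432 to 8.98 percentage points and that of *Ifit1bl1* from 0.0494 to 1.05. With copies summed, *Ifit3* and *Ifit3b* together differed by 9.28 points and the 2 *Ifit1*-like genes together by 2.11.

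Both groups carry the replicate numbers 1 to 3. Deviations from the group means of same-numbered libraries correlated at 0.12, 0.04 and 0.26, and WT N replicates 1 and 2 correlated better with another number, so the numbers were not taken as pairs. With a replicate block, 5 members were called (adjusted p from 4.71e-05 to 0.000176) and 1681 genes in all were lower and 4253 higher, and no call of a member changed. Over all genes, 1408 were called lower and 3619 higher, against 2215 and 2156 with median-of-ratios scaling, and 592 lower by the study's cut-offs applied to limma.

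Over the alternatives, the number of genes called lower and higher ranged from 0 to 1 and stayed at 1 for ligands and receptors, from 5 to 7 and 0 to 1 for signalling, 3 to 6 and 0 to 3 for sensing, 2 to 4 and 2 for feedback, 0 to 2 and 1 to 2 for cap enzymes, 0 to 2 and 3 to 5 for eIF3 subunits, and 17 to 20 lower for the other effectors. For neutrophil markers 7 to 12 were called higher. These ranges also reflect how many genes were tested. With a mean of at least 5 FPKM, 17 of the other effectors were tested and all 17 were called lower. In that setting 9 neutrophil markers were tested and 7 were called higher, and with TPM rescaling 16 were tested and 12 were called higher. Depth limits the 2 *Ifit1*-like genes, with about 2.6 to 11.1 fragments behind the low values. Whether fragments shared by *Ifit3* and *Ifit3b* were counted in full, split or dropped is not known.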

Other observations

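*Tlr4*, which senses lipopolysaccharide upstream of interferon beta and was named after its values were seen, did not follow the groups. It measured 1.47, 1.5 and 10.8 FPKM in WT N replicates 1 to 3 and 1.29, 11.4 and 1.35 FPKM in KO N replicates 1 to 3, so that 1 library of each group was high, while the IFIT genes of the same libraries stayed with their group. The log2 fold change of *Tlr4* was -0.05 with an SE of 0.95 (adjusted p = 0.97, limma).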
